A study of Mus musculus with 12 samples.

Results

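The 10 genes described here encode integrin subunits of leukocytes and blood progenitors: Itga2, Itga4, Itga5, Itga6, Itgal, Itgam, Itgav, Itgb1, Itgb2 and Itgb7. They were taken by symbol from the platform annotation, leaving aside the platelet pair Itga2b and Itgb3, and are 10 of the 18193 genes that a single-symbol probe set names there. Together they are read by 28 of the 45101 probe sets on the array.

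The samples are 12 arrays of G1ME, a mouse cell line with megakaryocyte and erythroid potential. Every group, the controls included, shares the loss of Gata1 that the labels state for the line. Cells were transduced with MIGR1-GFP, a retroviral vector with a green fluorescent protein marker, either empty or carrying GATA1, and GFP-positive cells were isolated by FACS 18 h or 42 h afterwards. This gives 4 groups of 3 arrays, lettered A, B and C, from a single cell line, and the submitters call the triplicates biological. Values are deposited linear intensities, one per probe set and array, and 3 arrays a group limit their precision.

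Array medians lay between 8.05 and 8.29. At 42 h the Gata1 probe set averaged 3137 ± 116 with the empty vector and 2044 ± 355 with GATA1 (SD, n = 3), which runs against the construct's name. Both levels also lie far above the array medians in a line labelled as Gata1-negative. Where this probe set lies on the transcript is unknown, so it does not check the labels. Klf1, a red cell factor and known GATA1 target, ran the way the labels name, from 240 ± 78.2 to 1859 ± 92.1 at 18 h and from 242 ± 43.0 to 4231 ± 271 at 42 h (SD, n = 3; limma adjusted p = 2.64e-04 and 1.04e-06). Gata2, which GATA1 is known to repress, was lower at 42 h (-2.36, limma adjusted p = 5.39e-04). Groups are called vector-labelled and GATA1-labelled throughout. All 13 megakaryocyte markers with a probe set exceeded the array median on 3 or more arrays. So did 12 of 13 erythroid, 7 of 12 myeloid and 4 of 10 mast and basophil markers. Of all 18193 genes 10759 met this, which the 3 GATA1-labelled arrays at 42 h alone can meet. Below the array median on every array were 8 of 10 lymphoid and 8 of 10 stromal and endothelial markers.

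Integrins are receptors made of 1 alpha and 1 beta subunit, which must pair before they reach the cell surface. Itgb1 pairs with many alpha subunits, among them those for collagen (Itga2), fibronectin and VCAM-1 (Itga4), fibronectin (Itga5), laminin (Itga6) and vitronectin (Itgav). Itgb2 is the beta subunit of leukocytes and pairs with Itgal, to bind ICAMs, or with Itgam, to bind complement and fibrinogen, while Itgb7 pairs with Itga4. Blood progenitors use such receptors to hold on to marrow stroma.

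At 42 h 2 of these subunits were higher in GATA1-labelled cells, the beta subunit Itgb2 by 2.13-fold and the alpha subunit Itga4 by 1.67-fold, and none was lower in the fit without a block for the replicate letter. With that block Itga6 was lower as well (-0.37, limma adjusted p = 0.00455), which made 3 members. The block also raised the calls among all tested genes at 42 h from 2253 to 3052. Folds and differences are taken from log2(intensity + 16), where 16 is a pseudocount that shrinks the changes of dim probe sets. The test was limma over all 12 arrays with Benjamini-Hochberg adjustment over the 10759 genes whose brightest probe set exceeded its array median on at least 3 arrays, and a gene passed at an adjusted p under 0.05. This admitted 7 of the 10 members. The 2 rises among 7 stand beside 10.3% of all tested genes higher at 42 h, and 20.9% changed in either direction. The median difference was 0.02 over the 7 members and 0.001 over all tested genes.

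At 18 h none of the 7 passed limma's test, beside 1.85% of all tested genes. Itgb2 and Itga4 were the 2 members with an unadjusted p under 0.05. The median difference of the 7 was 0.10 against -0.01 over all tested genes.

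**Figure D1:**
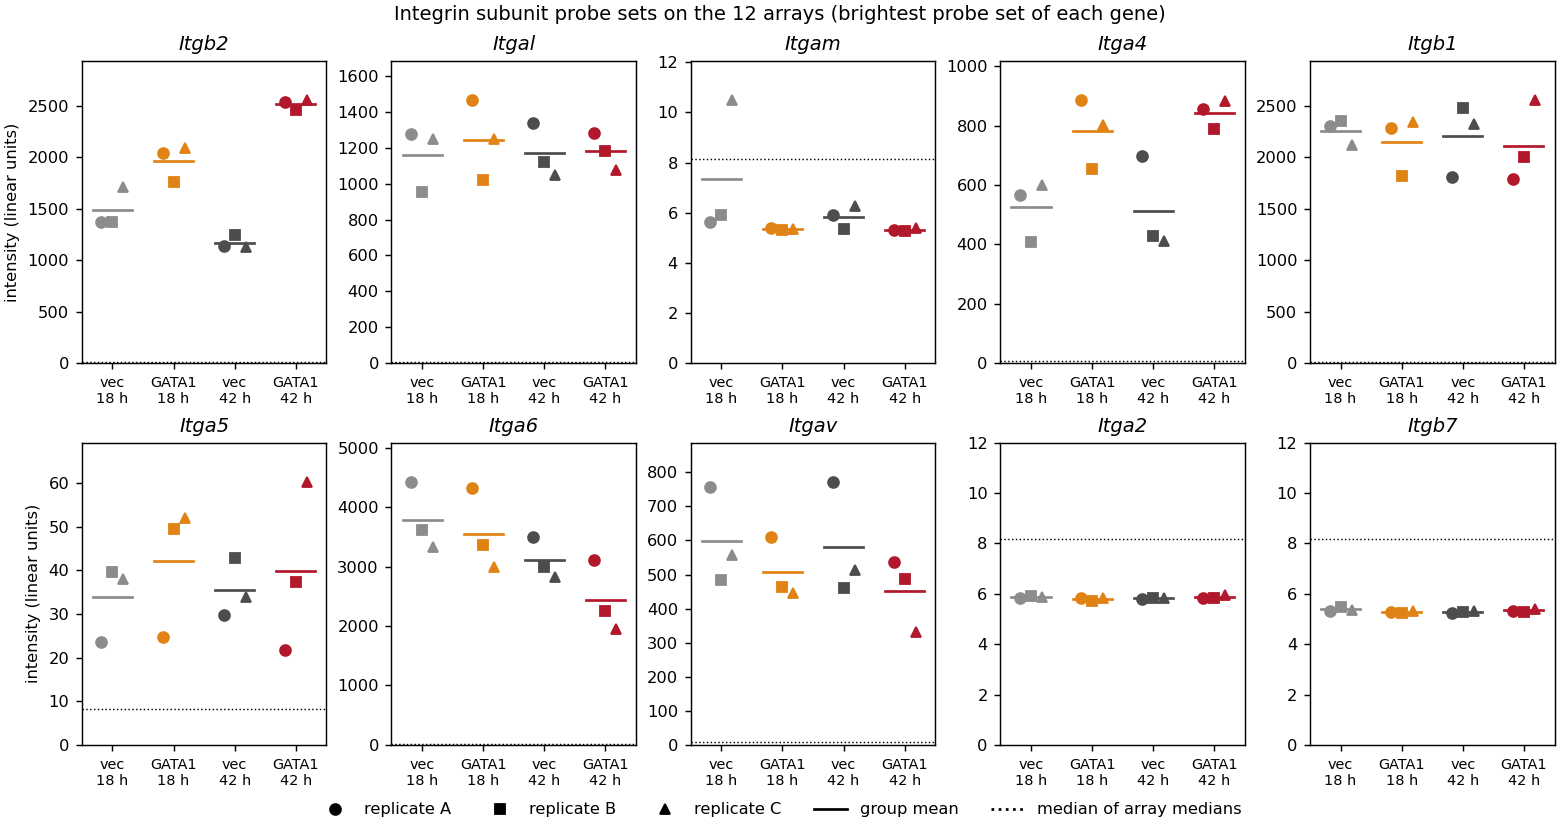
Intensity of the brightest probe set of each integrin gene on the 12 arrays (linear scale, a separate scale for each gene), by group. Symbols are arrays by replicate letter, bars are group means and the dotted line is the median of the array medians. The 3 GATA1-labelled arrays at 42 h lie above the other 9 for Itgb2, and Itga2 and Itgb7 lie below the dotted line on every array.

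Itgb2, the beta subunit of leukocyte integrins, has 1 probe set (1450678_at). It read 1377, 1370 and 1716 on vector-labelled arrays A, B and C at 18 h. In GATA1-labelled cells at 18 h it read 2045, 1762 and 2090. At 42 h it read 1143, 1251 and 1126 in vector-labelled cells and 2542, 2458 and 2554 in GATA1-labelled cells. The GATA1-labelled arrays were thus above the vector-labelled ones at each time, without overlap.

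Itgb2 differed by 0.40 ± 0.09 at 18 h (SE), short of the threshold (limma adjusted p = 0.0819). By 42 h it differed by 1.09 ± 0.09 and passed (SE, limma adjusted p = 4.33e-05), as it did under all 22 alternatives run. Within letters A, B and C the difference at 42 h was 1.14, 0.97 and 1.17. The effect at 42 h exceeded that at 18 h by 0.69 (95% interval 0.39 to 0.99, limma adjusted p = 0.0196 for the interaction). Of the 7 members Itgb2 alone passed this test of the interaction, which 4.68% of all tested genes passed and 2.31% passed as higher. The vector-labelled level differed by -0.33 between 42 h and 18 h, short of the threshold (limma adjusted p = 0.454). The GATA1-labelled level rose by 0.36 over the same time (limma adjusted p = 0.0333). Over that time 1 of the 7 members passed as higher and none as lower, beside 6.73% of all tested genes higher and 14.7% changed either way.

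Leaving out vector-labelled array C at 18 h brought Itgb2 past the threshold at that time (difference 0.51, limma adjusted p = 0.0138). The interaction call ended without vector-labelled array A at 42 h (limma adjusted p = 0.0530) and when all 4 letter A arrays were dropped (0.144), with alternatives spanning 0.0117 to 0.144. The rise over time in GATA1-labelled cells lost its call on leaving out any of 5 of the 6 arrays concerned, all but GATA1-labelled C at 18 h, with adjusted p between 0.0575 and 0.109. It also lost it with no filter (0.0693) and when all 4 letter A arrays were dropped (0.144), with alternatives spanning 0.0104 to 0.144.

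Itgal, the alpha subunit that joins Itgb2 in LFA-1, did not follow it. Its brightest probe set (1435560_at) had group means between 1159 and 1244, and single arrays from 952 to 1463. The groups overlapped at each time, and the difference at 42 h was 0.02 with a 95% interval of -0.33 to 0.37 (limma adjusted p = 0.991). That interval lies wholly below the one for Itgb2, 0.88 to 1.31, although the difference between the genes was not tested. The second probe set of Itgal differed by -0.12 at 42 h (adjusted p = 0.886 in limma's fit over probe sets).

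Itgam, the alpha subunit of the complement receptor of macrophages and granulocytes, read between 5.27 and 10.5 on its single probe set (1422046_at). It exceeded the array median on 1 array, vector-labelled C at 18 h, where it read 10.5 against at most 6.27 on the other 11. It was therefore not tested, and no change of level can be read from it.

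Itgb2 was the member that moved most, and markers of several blood lineages moved over the same arrays. Of 7 tested myeloid markers 3 were lower at 42 h and none higher, beside 10.6% of all tested genes lower. Their summed intensity fell from a range of 4162 to 4534 in vector-labelled to one of 1056 to 1176 in GATA1-labelled arrays. Cd14, Elane, Adgre1, Ctss and Cybb, 5 of the 12 with a probe set, were below the array median on every array. Of 10 mast and basophil markers 4 were tested and 3 of them were lower. Their sum was 4903 to 6675 and 578 to 907, with Fcer1a, Ms4a2, Tpsb2, Mcpt8, Mcpt4 and Cma1 below the array median on every array.

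Red cell and platelet markers moved the other way. Of 12 tested erythroid markers 11 were higher and 1 lower at 42 h, beside 10.3% and 10.6% of all tested genes, with sums of 25029 to 26962 and 49491 to 57402, and adult Hba-a1 was below the array median throughout. Of 13 megakaryocyte markers 7 were higher and 2 lower, beside the same shares, with sums of 19334 to 20621 and 39748 to 49242. In sorted bulk cells, more cells of a type cannot be told apart from more RNA per cell, and the part of these lineages in the rise of Itgb2 was not tested.

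**Figure D2:**
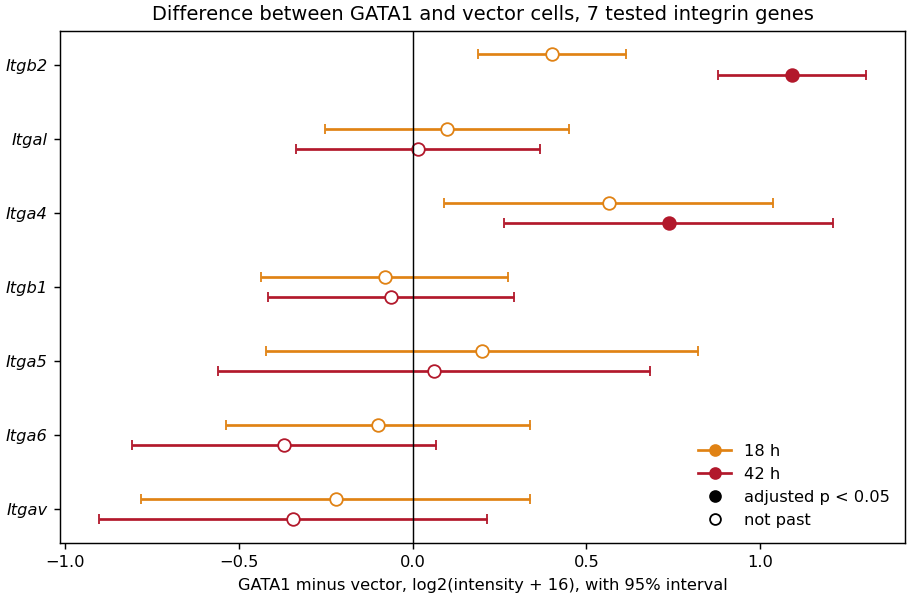
Difference between GATA1-labelled and vector-labelled cells in log2(intensity + 16) for the 7 tested integrin genes at 18 h and 42 h. Points are limma estimates, bars are 95% intervals and filled points have an adjusted p under 0.05, which only Itgb2 and Itga4 at 42 h do.

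Itga4 encodes the alpha subunit through which progenitors bind VCAM-1 and fibronectin. Its brightest probe set (1436037_at) read 566, 410 and 601 on vector-labelled arrays A, B and C at 18 h and 885, 654 and 803 on GATA1-labelled ones. At 42 h it read 698, 428 and 412 in vector-labelled cells and 854, 789 and 882 in GATA1-labelled cells. The groups did not overlap at either time. Vector-labelled array C at 18 h came closest, at 601 against 654 on the lowest GATA1-labelled array.

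Itga4 differed by 0.56 ± 0.21 at 18 h (SE), which did not pass (limma adjusted p = 0.348). By 42 h it differed by 0.74 ± 0.21 and passed (SE, limma adjusted p = 0.0342). It was 0.29 in letter A at 42 h, 0.86 in B and 1.07 in C. The effects at the 2 times differed by 0.17 (95% interval -0.50 to 0.84, limma adjusted p = 0.909). The call at 42 h ended on leaving out any array of that time other than vector-labelled A, with adjusted p between 0.0700 and 0.113. It ended as well with no filter (0.0776), with only the arrays compared (0.0821) and on the second brightest probe set (0.377), over a range of 0.00498 to 0.377.

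Of the 5 probe sets for Itga4, 4 were tested and all 4 were higher in GATA1-labelled cells at 42 h in their fitted value. The probe set 1421194_at went from 133 ± 22.6 to 268 ± 37.5 (SD, n = 3), a difference of 0.94 ± 0.19 (SE, adjusted p = 0.00893 in limma's fit over probe sets). The probe sets 1456498_at and 1450155_at differed by 0.65 and 0.61 without passing (adjusted p = 0.358 and 0.211). On 1456498_at the letter A array read highest in every group, and at 42 h the vector-labelled mean was 541 ± 273 and the GATA1-labelled mean 814 ± 251 (SD, n = 3). The remaining probe set, 1427615_at, stayed below the array median on all 12 arrays.

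Over all 28 probe sets of the 10 genes, 19 were tested, and 3 were higher at 42 h, the one for Itgb2 and 2 for Itga4. The share higher among all 19636 probe sets tested was 8.05%. At 18 h none of the 19 passed limma's test, beside 1.12% of all probe sets, and 3 had an unadjusted p under 0.05 (the same 3).

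**Figure D3:**
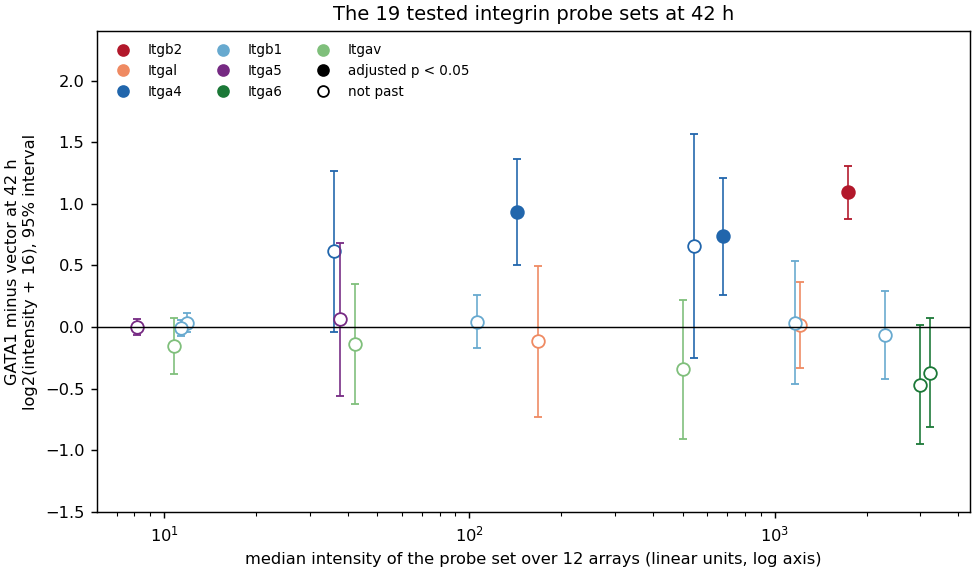
Difference at 42 h in log2(intensity + 16) for each of the 19 tested integrin probe sets (vertical axis, with 95% intervals) against the probe set's median intensity over 12 arrays (horizontal log axis). Colours are genes and filled points have an adjusted p under 0.05 over all probe sets. The 4 tested probe sets of Itga4 lie between 0.61 and 0.94, those of Itgb1 between -0.06 and 0.04.

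Promoter windows of 300 bases, from 250 before to 50 after a gene's start, were at hand from RefSeq on build GRCm38.p6 for 7 of the 10 members. Those of Itga4, Itgb1 and Itgam are printed because Itga4 rose, its partner Itgb1 did not pass, and Itgam lay at the bottom of the scale. They were searched on both strands for the GATA hexamers AGATAA or AGATAG or TGATAA or TGATAG and for GAGGAA, the core bound by PU.1, an ETS factor of myeloid cells. Capitals mark matches. They lie at chr2:79255176-79255475 (Itga4), chr8:128685404-128685703 (Itgb1) and chr7:128062390-128062689 (Itgam), all on the plus strand, and are written 5′ to 3′.
Itga4: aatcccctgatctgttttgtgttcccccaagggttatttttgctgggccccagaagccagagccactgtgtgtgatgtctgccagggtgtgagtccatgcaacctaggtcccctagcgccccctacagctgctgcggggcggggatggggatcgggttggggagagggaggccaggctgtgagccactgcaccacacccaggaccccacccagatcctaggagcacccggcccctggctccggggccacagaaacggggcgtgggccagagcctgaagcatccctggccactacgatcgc
Itgb1: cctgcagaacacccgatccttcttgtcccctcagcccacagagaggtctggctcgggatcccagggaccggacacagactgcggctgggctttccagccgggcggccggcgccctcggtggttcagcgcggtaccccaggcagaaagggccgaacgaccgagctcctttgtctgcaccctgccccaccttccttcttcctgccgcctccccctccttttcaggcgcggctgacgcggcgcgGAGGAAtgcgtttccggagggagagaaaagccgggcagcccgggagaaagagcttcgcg
Itgam: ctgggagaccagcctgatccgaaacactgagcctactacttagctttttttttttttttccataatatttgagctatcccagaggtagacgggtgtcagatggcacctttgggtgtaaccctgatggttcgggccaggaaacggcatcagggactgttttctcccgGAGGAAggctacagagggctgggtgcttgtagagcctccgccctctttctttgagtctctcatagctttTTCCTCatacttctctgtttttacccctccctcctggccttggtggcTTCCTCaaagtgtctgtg

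The Itga4 window held neither motif, that of Itgb1 held GAGGAA 1 time and that of Itgam 3 times. The first of these in Itgam began 84 bases before the start. Among the 7 windows GAGGAA occurred in 5 (Itga5, Itgam, Itgav, Itgb1 and Itgb7) and a GATA hexamer in 1 (Itgb7). Of all 32851 windows of this length 28.3% held GAGGAA and 29.8% a GATA hexamer. Matches describe letters and not binding. Windows for Itga6, Itgal and Itgb2 were not used here. At 42 h Spi1, the gene for PU.1, averaged 101 ± 31.7 with GATA1 labelling against 315 ± 55.4 with the vector (SD, n = 3; difference -1.53 ± 0.24, limma adjusted p = 0.00159).

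Itgb1, the common partner of the alpha subunits for matrix, did not pass at either time. Its brightest probe set (1426918_at) had group means from 2115 to 2260, single arrays from 1793 to 2552, and overlapping groups. The difference was -0.08 at 18 h and -0.06 at 42 h, with a 95% interval of -0.42 to 0.29 at 42 h (limma adjusted p = 0.894). The next brightest of its probe sets, 1452545_a_at, differed by 0.04 at 42 h (adjusted p = 0.982 in limma's fit over probe sets).

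Itga6, a laminin receptor subunit of stem and progenitor cells, was the member with the largest fitted fall. Its brightest probe set (1422445_at) read 4421, 3619 and 3330 on vector-labelled arrays A, B and C at 18 h and 4320, 3359 and 2987 on GATA1-labelled ones. At 42 h it read 3494, 2986 and 2832 in vector-labelled cells and 3119, 2245 and 1945 in GATA1-labelled cells. In all 4 groups array A was highest and array C lowest, so that groups overlapped, while within every letter the GATA1-labelled array was the lower.

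The difference in Itga6 at 42 h was -0.37 ± 0.19 (SE), which did not pass (limma adjusted p = 0.237). Within letters A, B and C it was -0.16, -0.41 and -0.54. With the replicate letter as a block, which fits the deviations shared by arrays of a letter, the same difference passed (limma adjusted p = 0.00455). Dropping all 4 letter A arrays also brought it past (-0.47, limma adjusted p = 0.0292), and alternatives spanned 0.00455 to 0.544. Between 18 h and 42 h in GATA1-labelled cells the difference was -0.55 ± 0.19 (SE, limma adjusted p = 0.0946), and in vector-labelled cells -0.28 ± 0.19 (limma adjusted p = 0.970). All 3 letters were lower at 42 h in GATA1-labelled cells (-0.47, -0.58 and -0.61). That difference passed with the replicate block (limma adjusted p = 0.00109) and with array weights (0.0106). It also passed without the letter A arrays (0.0202) and without GATA1-labelled array A at 42 h alone (0.0261), over a span of 0.00109 to 0.261. The second probe set, 1422444_at, gave -0.47 ± 0.21 for the effect of GATA1 labelling at 42 h and -0.67 ± 0.21 over time in GATA1-labelled cells (SE; adjusted p = 0.195 and 0.0857 in limma's fit over probe sets).

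Itgav, the alpha subunit of vitronectin receptors, read between 332 and 771 on its brightest probe set (1452784_at). At 42 h it averaged 582 ± 166 with vector and 452 ± 107 with GATA1 labelling (SD, n = 3), with overlap. The difference of -0.34 had a 95% interval of -0.90 to 0.21 (limma adjusted p = 0.409). Itga5, the alpha subunit of the classical fibronectin receptor, was dim on 1423267_s_at, between 21.7 and 60.3. Its difference at 42 h was 0.06 with a 95% interval of -0.56 to 0.68 (limma adjusted p = 0.967).

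Itga2, the collagen receptor subunit of platelets and some lymphocytes, read between 5.72 and 5.96 on 1450501_at. Itgb7, the gut-homing partner of Itga4, read between 5.25 and 5.49 on 1418741_at. Neither exceeded the array median on any of the 12 arrays, so neither was tested and differences between their groups have no meaning here.

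From 18 h to 42 h in vector-labelled cells none of the 7 tested members passed limma's test, beside 0.0186% of all tested genes. Itgb2 was the only member with an unadjusted p under 0.05.

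Several members varied with the replicate letter. Array A was the highest of its group in 4 of 4 groups for Itga6, Itgal and Itgav, and the lowest in 4 of 4 for Itga5. On average array A exceeded array C by 0.48 in log2(intensity + 16) for Itga6 and by 0.53 for Itgav, and lay 0.58 below it for Itga5 (-0.58). For Itgb2 the same contrast was -0.08. Deviations of same-letter arrays also correlated over all tested genes, at 0.05 to 0.66 in the comparisons made. The share of all tested genes with such a letter pattern was not counted. A 5′ control probe set for 18S ribosomal RNA read higher on every A array than on any C array. Its log2 intensities were 8.32 to 12.4 on A, 5.53 to 10.6 on B and 4.79 to 6.75 on C. Among B arrays only the vector-labelled one at 18 h read 10.6, and the others read 5.53 to 6.13. The letters are not described further in the labels, and the part of RNA quality in these deviations was not tested.

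**Figure D4:**
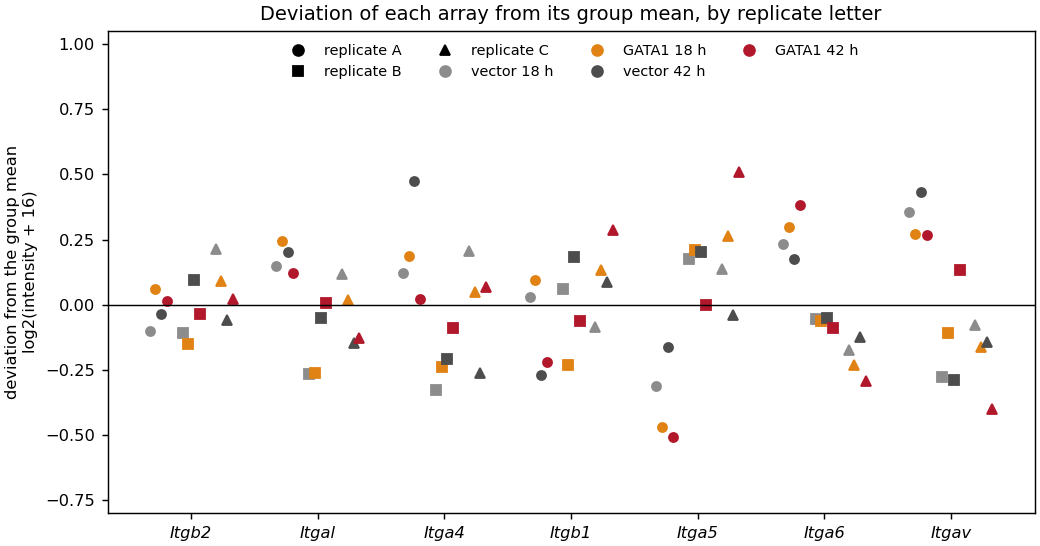
Deviation of each array from its group mean in log2(intensity + 16) for the 7 tested integrin genes (n = 3 arrays a group). Shapes are replicate letters and colours are groups. The letter A arrays lie above 0 in every group for Itga6, Itgal and Itgav and below 0 in every group for Itga5.

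The genes with the profile most like Itgb2 over the 12 arrays were Cpox, a heme synthesis enzyme (Pearson r = 0.97, Spearman rho = 0.90), and Mpp1, a red cell membrane scaffold (r = 0.97, rho = 0.94). For Itga4 they were Zswim6 (r = 0.92, rho = 0.87) and Mbnl1, a splicing regulator (r = 0.91, rho = 0.87). These values are descriptions over 12 arrays in 4 groups, which share the treatment contrast.

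Genes that act around integrins were read from 4 lists. Of 16 other integrin subunits 14 had a probe set and 7 were tested, the platelet pair among them. None passed limma's test at 42 h, beside 20.9% of all tested genes, although 2 had an unadjusted p under 0.05. Itga9, Itgae, Itgb5 and Itgb8 were dim, with group means from 8.05 to 13.9 beside array medians of 8.05 to 8.29. The pseudocount of 16 shrinks their differences. The median difference of the 7 was -0.12, that of Itgae.

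Integrin activation needs talin and kindlin at the beta tail, recruited by the small GTPase RAP1. Of 22 tested genes of this step 3 rose and 4 fell at 42 h, beside 10.3% higher and 10.6% lower over all tested genes, with a median of -0.07. The rises were those of Rasgrp2, an exchange factor that switches on RAP1 in platelets, from 229 ± 6.45 to 998 ± 98.6 (SD, n = 3; 2.04, limma adjusted p = 4.39e-05), of Fermt3, the kindlin of blood cells (0.51, limma adjusted p = 0.00117), and of Rap1b itself (0.25, limma adjusted p = 0.0197). Among the falls were Cytip, a binding partner of the integrin regulator cytohesin (-1.47, limma adjusted p = 4.33e-06), Sipa1, which switches RAP1 off (-0.85, limma adjusted p = 0.0131), and Rapgef3, another RAP1 exchange factor (-0.79, limma adjusted p = 0.0195), which was dim at 32.4 ± 1.91 in vector-labelled cells (SD, n = 3). Cytip was also lower at 18 h (-0.80, limma adjusted p = 0.00233), the single gene of this list to pass then. Rap1b lost its call under 4 of 23 alternatives, among them leaving out GATA1-labelled array C at 42 h (limma adjusted p = 0.0679), and its difference was 0.51 without passing on the second brightest probe set. Rapgef3 lost its call under 4 of 22, among them leaving out vector-labelled B, vector-labelled C or GATA1-labelled B at 42 h (0.0502, 0.0545 and 0.0672), with differences from -1.37 to -0.25. Sipa1 lost its call without the letter A arrays (0.0602).

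Of 26 tested genes of the adhesion complex and its kinases 3 rose and 9 fell at 42 h, with a median of -0.25. Over all tested genes 10.3% were higher, near the share of rises here, and 10.6% lower. Parvb, a parvin that links integrin-linked kinase to actin, went from 5.76 ± 0.12 to 567 ± 170 (SD, n = 3). Its vector-labelled level lay below the array median, and its difference (4.70, limma adjusted p = 3.12e-06) ranged from 1.25 on the second brightest probe set to 6.35 over the alternatives, passing in each. Src, a kinase that acts downstream of integrins, rose by 1.88 (limma adjusted p = 6.76e-05) and Actn1, an actin crosslinker, by 1.13 (limma adjusted p = 0.00417). Actn1 gave 0.05 on its second brightest probe set (limma adjusted p = 0.930, over a range of 5.41e-04 to 0.930). The largest falls were those of Lpxn, the leukocyte relative of paxillin (-1.96, limma adjusted p = 5.94e-05), Arhgef6, an exchange factor for RAC and CDC42 (-1.17, limma adjusted p = 0.0369), and Pxn, paxillin (-1.02, limma adjusted p = 0.00698). Arhgef6 lost its call under 9 of 22 alternatives, with no filter, with only the arrays compared, and without any of 7 single arrays (vector-labelled B and GATA1-labelled B at 18 h, and all at 42 h but vector-labelled A). Its adjusted p reached 0.113, without GATA1-labelled array A at 42 h, and its difference ran from -1.37 to -0.58. Pxn lost its call with only the arrays compared (limma adjusted p = 0.0627).

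Of 14 tested ligands 3 rose and none fell at 42 h, beside 10.3% of all tested genes higher and 10.6% lower, with a median near 0. Icam4 and Thbs1 had also passed as higher at 18 h, when 1.85% of all tested genes passed in either direction. The 3 were Icam4, a red cell ligand of leukocyte integrins, which went from 102 ± 29.0 to 1058 ± 110 (SD, n = 3; 3.21, limma adjusted p = 4.14e-06), Thbs1, thrombospondin (5.69, limma adjusted p = 9.65e-06), and Vwf, von Willebrand factor (5.34, limma adjusted p = 2.63e-06). Vwf read 5.28 ± 0.02 in vector-labelled cells (SD, n = 3), at the bottom of the scale. Icam1 and Vcam1, the endothelial ligands of Itgal and Itga4, differed by -0.64 and -0.01 without passing.

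**Figure D5:**
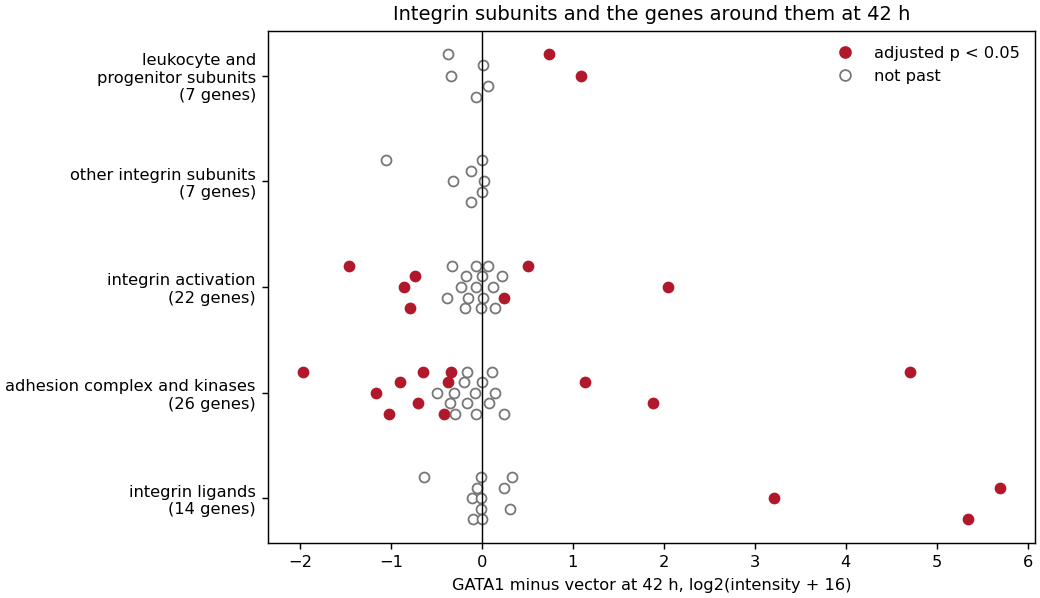
Difference at 42 h in log2(intensity + 16) for each tested gene of the integrin subunits described here and of 4 lists of genes around them. Points are genes and filled points have an adjusted p under 0.05. Of the 7 leukocyte and progenitor subunits 2 are filled, both above 0, and of the 7 other subunits none. Among these others Itga9, Itgae, Itgb5 and Itgb8 were dim, with group means from 8.05 to 13.9.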

How the data were processed

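Expression was measured on 12 arrays. The authors deposited linear intensity values of 45101 probe sets. GCRMA and MAS5 appear in the submitters' processing notes with neither version nor role, so background correction and scaling are not given in the sources used here. Nothing was normalized further. No array was a copy of another (at most 0.0266% identical values). Probe sets were named through the platform annotation, using those with a single symbol (34945), and all 28 of the members matched a RefSeq gene ID.

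Values were taken as log2(intensity + 16), and the probe set with the highest mean stood for a gene. Genes above the array median on at least 3 of 12 arrays entered a linear model over 4 groups in limma 3.58.1 (R 4.3.3) (two-sided, Benjamini-Hochberg over 10759 genes, threshold 0.05). A second fit took 19636 probe sets. The code was tested on simulated data. Members, lists and alternatives were chosen with earlier results of these data known.

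The rule for named genes took all members, Gata1 and Spi1, up to 3 rising and 3 falling most at 42 h per list of genes, and the 2 genes most correlated with each member that passed. Other genes named (markers below the array median, dim other integrin subunits, Icam1, Vcam1, Fn1, Madcam1) were chosen after their values were seen. Deviations from group means were compared between arrays of the same letter. Their correlations were 0.66, 0.31 and 0.65 between GATA1 and vector arrays lettered A, B and C at 18 h, and 0.60, 0.24 and 0.33 at 42 h. They were thus taken as paired for these comparisons, although the main fit has no term for the letter. A value with the letter as a block is given where it changes a member's call, or the interaction call of another named gene. With the block the interaction passed as negative for Spi1 (limma adjusted p = 0.0125 against 0.149 without it) and Arhgef6 (6.51e-04 against 0.354). It passed as positive for Actn1 (limma adjusted p = 0.0100 against 0.0669) and Klf1 (0.0378 against 0.0506). Between the times the correlations for A, B and C were 0.54, 0.38 and 0.35 in vector arrays. In GATA1 arrays they were 0.57, 0.05 and 0.61. Because of letter B the GATA1 arrays were not taken as paired between the times, although those of letters A and C were correlated.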

Additional observations from a re-analysis of the deposited data

Results flagged for a closer look

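The effect of GATA1 labelling differed between 42 h and 18 h by limma's interaction test for Itgb2, by 0.69 ± 0.13 (SE, limma adjusted p = 0.0196). In each of the comparisons its arrays did not overlap. Among the other genes named, the effect was larger at 42 h for Vwf (by 4.31), Parvb (3.16), Thbs1 (2.38), Icam4 (1.85), Rasgrp2 (1.41) and Src (1.08). The change was more negative at 42 h for Cytip (-0.67), Lpxn (-1.29) and Gata2 (-2.17), a GATA factor of progenitors that belongs to the list of Gata1 and Spi1. Apart from Itgb2, the genes listed here were named for their differences at 42 h. That choice favours a larger effect at that time, so their interaction calls are descriptions. Over all tested genes 4.68% passed the interaction test in either direction. The calls of Vwf, Parvb and Icam4 held under every alternative run. Src lost its call under 14 of 23 alternatives (limma adjusted p up to 0.694), Thbs1 under 15 of 23 (0.122), Gata2 under 5 of 23 (0.114), Lpxn under 5 of 22 (0.0930), Rasgrp2 under 2 of 23 (0.132), Cytip under 1 of 23 (0.0860) and Itgb2 under 2 of 22 (0.144). Among single arrays, Gata2 lost it without vector-labelled A or B at 18 h or B at 42 h, and Lpxn without vector-labelled B at 18 h, vector-labelled A at 42 h or GATA1-labelled B at 42 h.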

How the results depend on the processing

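Each result was recomputed with other pseudocounts (1 and 64), no filter, a stricter filter, the second brightest or the mean probe set, quantile normalization, only the arrays compared, array weights, the replicate block, without the arrays lettered A and without each array in turn. Of 795 values of single members under these settings 771 kept their side of the threshold, 17 lost a call, 7 gained one and none reversed. For other named genes 1176 of 1284 kept it, 79 lost a call and 29 gained one.

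The number of members past the threshold at 42 h, 2 in the report, was 1 with no filter, 1 with only the arrays compared and 0 on the second brightest probe set, where Itgb2 has none. It lay between 1 and 2 on leaving out single arrays. At 18 h it was 0, and between 0 and 1 on leaving out single arrays. For the interaction it was 1, but 0 on the second brightest probe set (Itgb2 absent), 0 without the arrays lettered A, and between 0 and 1 without single arrays. For GATA1-labelled cells over time it was 1, but 0 with no filter, 0 on the second brightest probe set, and between 0 and 1 without single arrays. It was 2 with the replicate block and 2 with array weights, where Itga6 joined Itgb2. With the replicate block Itga6 at 42 h also passed (-0.37, limma adjusted p = 0.00455), which made 3 members there, and the block changed no other member's call. Without the arrays lettered A Itga6 at 42 h passed too (-0.47, limma adjusted p = 0.0292), which again made 3 members. Over all tested genes the block gave 355 against 199 calls at 18 h and 3052 against 2253 at 42 h. It gave 853 against 504 for the interaction, 41 against 2 in vector-labelled cells over time and 2318 against 1578 in GATA1-labelled cells over time. Over all alternatives the calls among all genes ran from 32 to 355 at 18 h, from 641 to 3052 at 42 h, from 96 to 853 for the interaction, from 0 to 41 in vector-labelled cells over time and from 403 to 2930 in GATA1-labelled cells over time. Except where values above show it, the cause of these shifts was not tested. Probe sets near or below the array median limit what can be seen for Itga2, Itgam and Itgb7, and a dim one (21.7 to 60.3) for Itga5.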
